A study of Mus musculus with 4 samples.

Results

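The 32 genes described here encode antiviral effectors that type I interferon induces. They were taken by symbol from the deposited count table, in which all 32 of 32 were found among 38355 genes. The tissue was the free wall of the left ventricle, taken from 4 mice of the same parents that had no treatment, with 1 library per mouse. WT 1 was a wild-type male of 35 weeks and WT 2 a wild-type female of 19 weeks. TG 1 was a male of 35 weeks and TG 2 a female of 19 weeks, and both carried the VSFP2.3 transgene, a fluorescent voltage indicator that the series title places in heart muscle cells. The submitters state the purpose as a test of whether the transgene harms the heart. Strain and transgene promoter are not given in the sources used here. With 1 male and 1 female per genotype, sex and age cannot be told apart.

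Type I interferons bind the receptor formed by Ifnar1 and Ifnar2, which activates the kinases Jak1 and Tyk2. A complex of transcription factors that includes Stat2 and Irf9 then binds a short element in the promoters of target genes and switches on a large set of antiviral proteins. These proteins bind or cut viral RNA, trap virus particles, change nucleotide pools or sense foreign nucleic acid. In the heart both muscle cells and resident immune cells can make them, and many are present at a low level without infection.

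The 4 libraries held 14158440 to 16762713 counted reads. Levels are given in CPM, a gene's reads scaled to library size, with library sizes adjusted by trimmed means (TMM). A count of 0 allows up to 3 counts, or 0.182 to 0.213 CPM by library, and this limit covers counting error only. The 6 cardiomyocyte markers were abundant throughout, with a summed level of 50276 to 65218 CPM. WT 2 stood apart in its atrial muscle markers (Myl4, Myl7 and Sln), which summed to 165.8 CPM there and to 0.711 to 1.46 CPM in the other 3 libraries. WT 1 and TG 2 stood apart from WT 2 and TG 1 in leukocyte markers, and these are given with the results they move with. All 32 members passed the filter on low counts, and 27 had at least 10 counts in every library.

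WT 1 had the highest level of 31 of the 32 members, and TG 2 the second highest of 28. Across all 14189 genes tested, WT 1 was the highest library for 28.1%. WT 1 and TG 2 were together above both WT 2 and TG 1 for 29 members, against 24.6% of all genes tested. The order WT 1, TG 2, WT 2, TG 1 held for 16 members and the order WT 1, TG 2, TG 1, WT 2 for another 12. Shares of all genes are not given here for single orders or for TG 2 as second highest. The high libraries were thus 1 wild-type and 1 transgenic heart, and the low libraries likewise. Cmpk2, Adar, Oas2 and Oasl1 had other orders.

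**Figure D1:**
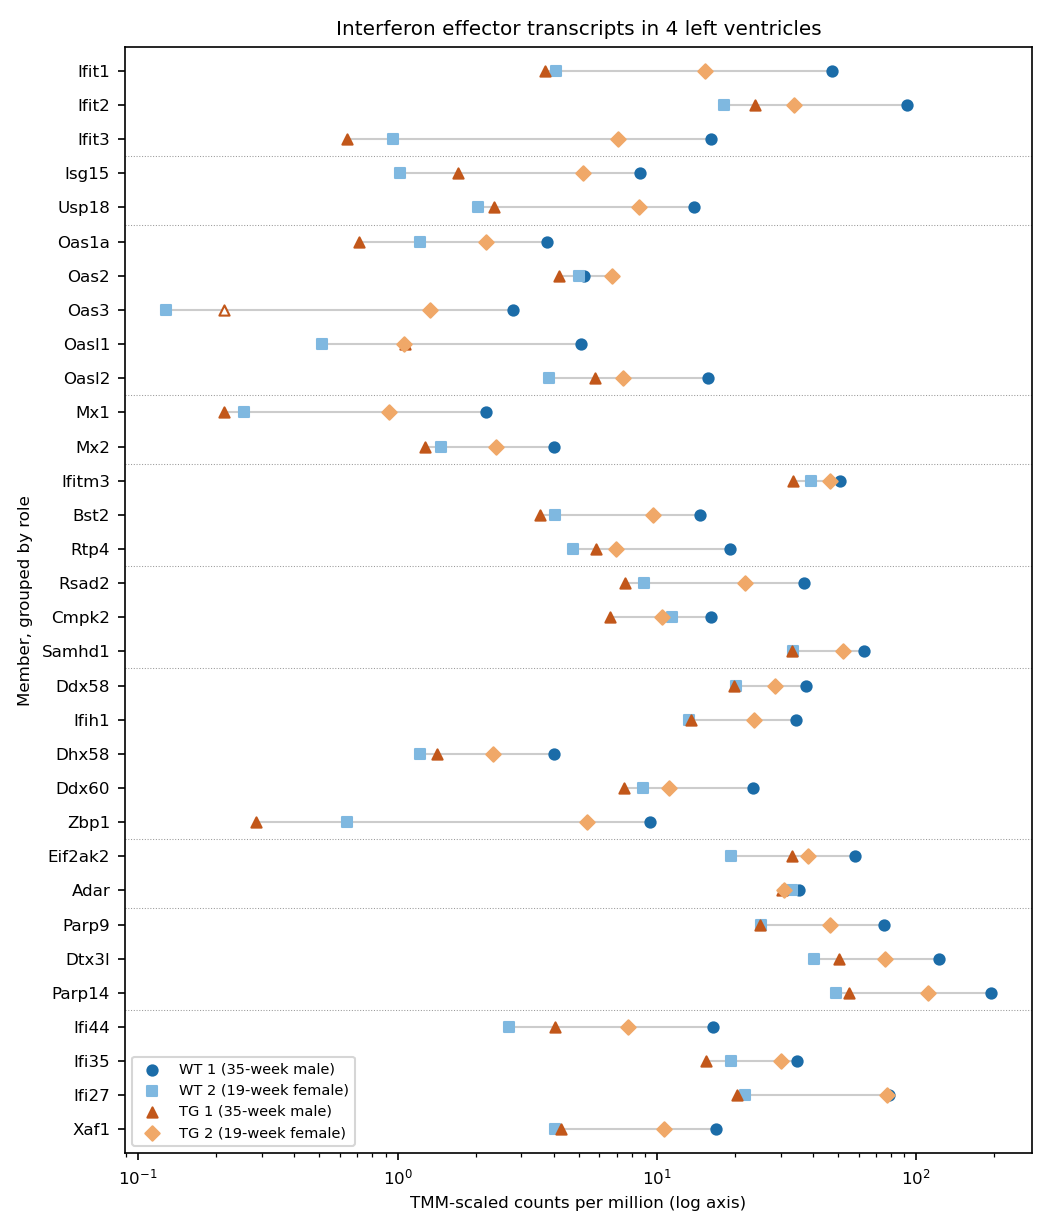
Level of each of the 32 members in each library, in TMM-scaled CPM on a log axis, with members grouped by role and a grey line from the lowest to the highest library. WT 1 is the highest library for 31 members, and the open symbol is Oas3 in TG 1, which had 0 counts and is drawn at its limit of 0.213 CPM.

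The IFIT proteins bind viral RNA that lacks the host's cap methylation or carries a terminal triphosphate. Ifit1 was at 47.5 CPM in WT 1 and 15.3 CPM in TG 2, against 4.09 CPM in WT 2 and 3.70 CPM in TG 1. Ifit2 was at 92.0 CPM in WT 1, 33.9 CPM in TG 2, 23.9 CPM in TG 1 and 18.2 CPM in WT 2. Ifit3 was at 16.1 CPM in WT 1 and 7.11 CPM in TG 2, against 0.960 CPM in WT 2 and 0.640 CPM in TG 1. For all 3 the order of the upper libraries was the same, and WT 1 lay more than 2-fold above each other library. The 3 genes lie in 1 cluster on chromosome 19, with other genes of the family between Ifit3 and Ifit1, from 34550694 (the start of Ifit2) to 34650009 (the end of Ifit1) in the mm10 assembly. Ifit3 has a copy, Ifit3b, that is 97.8% identical over 1700 bp, so reads may be split or lost between them. Ifit3b was at 26.0 CPM in WT 1, 4.65 CPM in TG 2, 3.06 CPM in TG 1 and 1.41 CPM in WT 2, with WT 1 again the highest.

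Isg15 is a ubiquitin-like protein that is joined to other proteins, and Usp18 is the protease that removes it and damps the receptor. Isg15 was at 8.57 CPM in WT 1 and 5.18 CPM in TG 2, against 1.71 CPM in TG 1 and 1.02 CPM in WT 2. Isg15 is 95.2% identical over 482 bp to a gene that is not in the count table, so its level is uncertain. Usp18 was at 13.9 CPM in WT 1 and 8.50 CPM in TG 2, against 2.35 CPM in TG 1 and 2.05 CPM in WT 2. Both genes separated the same libraries, and the distance from WT 1 to TG 2 was smaller than for the IFIT genes. The ratio of WT 1 to TG 2 was 1.66 for Isg15 (95% exact interval 1.25 to 2.21, counting error only) and 1.63 for Usp18 (1.31 to 2.04).

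The OAS proteins make an RNA-like messenger that activates RNase L when they bind double-stranded RNA, and the OAS-like proteins share their fold. Oas1a was at 3.77 CPM in WT 1, 2.19 CPM in TG 2, 1.22 CPM in WT 2 and 0.711 CPM in TG 1. Oas3 had 46 counts in WT 1 and 20 in TG 2, against 2 in WT 2 and 0 in TG 1. Its level in WT 1 was thus at least 13.1-fold higher than in TG 1, taking 3 counts in TG 1 as the limit, and the exact lower limit with the counting error of both libraries was 10.2. It was 21.9-fold that of WT 2, with an exact interval of 5.72 to 186. Oasl2, an OAS-like gene, was at 15.7 CPM in WT 1, 7.37 CPM in TG 2, 5.76 CPM in TG 1 and 3.84 CPM in WT 2. Oasl1 lies next to Oasl2 on chromosome 5. Its level was 5.11 CPM in WT 1, 1.07 CPM in TG 1, 1.06 CPM in TG 2 and 0.512 CPM in WT 2. Oasl1 was high in WT 1 alone, with TG 2 level with TG 1, and its ratio of WT 1 to TG 2 was 4.81 (exact interval 2.79 to 8.79). Oas2 did not separate the libraries in this way, at 6.71 CPM in TG 2, 5.23 CPM in WT 1, 4.99 CPM in WT 2 and 4.20 CPM in TG 1. Oas1a is 97.6% identical to Oas1g over 1861 bp, so its level is uncertain.

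The MX proteins are dynamin-like GTPases that block viruses at an early step. Mx1 had 36 counts in WT 1 and 14 in TG 2, against 4 in WT 2 and 3 in TG 1. Mx2 had 66 counts in WT 1 and 36 in TG 2, against 23 in WT 2 and 18 in TG 1. Both followed the main order at low levels. The annotation lists Mx2 as a polymorphic pseudogene, and the transcripts of the 2 genes are 94.8% identical over 920 bp, so their levels are uncertain.

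Among proteins that act at membranes, Ifitm3, which blocks fusion of virus with the endosome, varied least. Its level was 50.9 CPM in WT 1, 46.4 CPM in TG 2, 39.3 CPM in WT 2 and 33.4 CPM in TG 1. Bst2, or tetherin, which holds budding virus at the cell surface, was at 14.7 CPM in WT 1 and 9.63 CPM in TG 2, against 4.03 CPM in WT 2 and 3.56 CPM in TG 1. Rtp4 was at 19.2 CPM in WT 1, 6.97 CPM in TG 2, 5.83 CPM in TG 1 and 4.73 CPM in WT 2. Bst2 put TG 2 near WT 1, whereas Rtp4 put TG 2 near the low pair.

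Rsad2, or viperin, makes a chain-terminating nucleotide with the help of the kinase Cmpk2, and both genes lie together on chromosome 12 (26442746 to 26479837). Rsad2 was at 36.8 CPM in WT 1 and 21.8 CPM in TG 2, against 8.89 CPM in WT 2 and 7.54 CPM in TG 1. Cmpk2 was at 16.1 CPM in WT 1, 11.4 CPM in WT 2, 10.4 CPM in TG 2 and 6.62 CPM in TG 1. The neighbours therefore differed, since Cmpk2 in WT 2 was level with TG 2. Samhd1, which breaks down deoxynucleotides, was at 62.7 CPM in WT 1, 52.2 CPM in TG 2, 33.6 CPM in WT 2 and 33.1 CPM in TG 1.

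The sensors of foreign nucleic acid were above 10 CPM in every library for Ddx58 and Ifih1, which start interferon production on binding viral RNA. Ddx58, or RIG-I, was at 37.6 CPM in WT 1, 28.6 CPM in TG 2, 20.2 CPM in WT 2 and 19.8 CPM in TG 1. Ifih1, or MDA5, was at 34.5 CPM in WT 1, 23.8 CPM in TG 2, 13.5 CPM in TG 1 and 13.3 CPM in WT 2. For both, WT 2 and TG 1 were nearly equal and WT 1 lay 1.86-fold to 2.59-fold above them. Dhx58, their regulator, ranged from 1.22 CPM in WT 2 to 4.01 CPM in WT 1, and Ddx60, a related helicase, from 7.47 CPM in TG 1 to 23.5 CPM in WT 1. Zbp1, which senses left-handed nucleic acid and can start necroptosis, had 155 counts in WT 1 and 81 in TG 2, against 10 in WT 2 and 4 in TG 1. Zbp1 thus had one of the widest gaps between the high and the low libraries.

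Eif2ak2, or PKR, stops translation on binding double-stranded RNA, and Adar edits such RNA. Eif2ak2 was at 58.3 CPM in WT 1, 38.3 CPM in TG 2, 33.2 CPM in TG 1 and 19.3 CPM in WT 2, so TG 1 lay closer to TG 2 than to WT 2. Adar stayed within a narrow range, at 35.3 CPM in WT 1, 33.2 CPM in WT 2, 30.9 CPM in TG 2 and 30.4 CPM in TG 1. Adar shares 16.8% of its exonic length with Chrnb2 on the opposite strand, and the strand setting of the counting is not known here, so its level is uncertain.

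Parp9 and Dtx3l form a complex that adds ADP-ribose and ubiquitin, and Parp14 is a related enzyme at the same place on chromosome 16. Parp14 was at 193.8 CPM in WT 1 and 110.6 CPM in TG 2, against 55.1 CPM in TG 1 and 49.1 CPM in WT 2. Dtx3l was at 122.2 CPM in WT 1 and 76.0 CPM in TG 2, against 50.1 CPM in TG 1 and 40.4 CPM in WT 2. Parp9 was at 74.9 CPM in WT 1 and 46.4 CPM in TG 2, against 25.3 CPM in WT 2 and 25.0 CPM in TG 1. The 3 genes moved alike, with ratios of WT 1 to TG 2 of 1.75, 1.61 and 1.62. Parp9 and Dtx3l share 458 bp of exon on opposite strands.

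Of the other induced genes, Ifi27 was level in the high libraries, at 78.6 CPM in WT 1 and 77.0 CPM in TG 2, against 21.9 CPM in WT 2 and 20.3 CPM in TG 1. Its ratio of WT 1 to TG 2 was 1.02 (exact interval 0.942 to 1.11). Ifi44 was at 16.5 CPM in WT 1, 7.77 CPM in TG 2, 4.05 CPM in TG 1 and 2.69 CPM in WT 2. Xaf1, a promoter of apoptosis, was at 16.9 CPM in WT 1 and 10.6 CPM in TG 2, against 4.27 CPM in TG 1 and 4.03 CPM in WT 2. Ifi35 was at 34.8 CPM in WT 1, 30.02 CPM in TG 2, 19.3 CPM in WT 2 and 15.4 CPM in TG 1. Ifi35 shares 16.8% of its exonic length with an antisense gene, so its level is uncertain.

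Levels can be compared between members only per exonic length. On that scale, averaged over the 4 libraries, Ifitm3 stood first at 62.7 CPM per kb, with a range of 49.3 to 75.1. Ifi27 followed at 33.7 CPM per kb, with a range of 13.9 to 53.5. This overlapped the ranges of Ifitm3, of Ifi35 (mean 14.4, range 8.94 to 20.1) and of Dtx3l (mean 12.6, range 7.06 to 21.3). Within each library, however, Ifi27 lay below Ifitm3 and above Ifi35 and Dtx3l. At the low end, Mx1 averaged 0.237 CPM per kb (range 0.0564 to 0.578) and Oas3 averaged 0.150 CPM per kb with a highest value of 0.396.

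The genotypes were compared over all 14189 genes with the quasi-likelihood test of edgeR, at a Benjamini-Hochberg adjusted p of 0.05. No member passed, and 0 members had an unadjusted p below 0.05. DESeq2 and limma-voom also called 0 members, with 0 below an unadjusted 0.05 in each. The background was the same, since edgeR called 0% of all genes and 0.698% had an unadjusted p below 0.05. Fitted values were lower in TG for 31 members and higher for 1, with a median log2 fold change of -0.55 against -0.01 over all genes tested. Without WT 1 the median was 0.69 and 30 members were higher in TG, so no direction is read from it. Without WT 2, the library with atrial genes, the median was -1.20 and 31 members were lower in TG. In 2 members both TG libraries lay below both WT libraries and in 0 above them, while these held for 10.7% and 10.3% of all genes tested. These members were Cmpk2 and Adar, named after their values were seen.

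For the 8 members that represent the roles, fitted log2 fold changes of TG over WT are given with the standard error of the edgeR fit, 2 mice per genotype. Ifit1 was at -1.44 ± 1.22 and Isg15 at -0.48 ± 1.05. Oas2 was at 0.09 ± 0.32 and Mx1 at -1.08 ± 1.16. Rsad2 was at -0.64 ± 0.80 and Ddx58 at -0.26 ± 0.36. Bst2 was at -0.50 ± 0.75 and Adar at -0.16 ± 0.13. By edgeR the adjusted p was 1.00 for all 8, and all but Adar changed sign when 1 library was left out. The smallest unadjusted p of any member was 0.0808, for Cmpk2 at -0.69 ± 0.31. The standard errors of Ifit1, Isg15 and Mx1 exceed 1 on the log2 scale, and those of Rsad2 and Bst2 are 0.80 and 0.75. This comparison could thus not show a 2-fold difference in these genes. No gene passed at all, so the lack of calls does not show that the other members were unchanged.

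The same test was run for the older males (35 weeks) against the younger females (19 weeks). Again 0 members passed, with 0 below an unadjusted p of 0.05 by edgeR, where 0.0282% of all genes tested passed and 3.62% were below that p. DESeq2 and limma-voom called 0 members too, with 1 and 0 below an unadjusted 0.05. Values were higher in the males for 30 members, with a median log2 fold change of 0.60 against 0.01 over all genes. Without WT 1 the median was -0.52, with 3 members higher in the males, and without WT 2 it was 0.10, with 22. Oasl1 alone had both males above both females, which held for 15.5% of all genes tested. For Oasl1 this was a near tie, with 15 counts (1.07 CPM) in TG 1 and 16 counts (1.06 CPM) in TG 2. In 0 members were both males below, which held for 15.9%.

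Since WT 1 was the extreme library, it was set against each other library. These are comparisons of 1 library with 1, so they have no replicate check and no p-value, and all of them share WT 1. A member was counted when its log2 ratio, with a prior count of 2, passed a 2-fold difference. Against WT 2, 25 members were past 2-fold higher in WT 1 and 0 lower, where 6.87% of all genes tested were past 2-fold higher and 2.88% lower. Their median log2 ratio was 1.83, from 0.07 for Oas2 to 3.90 for Ifit3. Against TG 1, 26 members were past 2-fold higher in WT 1 and 0 lower, with 6.07% and 1.86% of all genes. The median was 1.75, from 0.21 for Adar to 4.52 for Zbp1, and it was the same with Oas3 set to its limit. Against TG 2, 10 members were past 2-fold higher in WT 1 and 0 lower, with 1.69% and 1.09% of all genes, and the median was 0.71. With library totals in place of TMM, the median log2 ratio of all genes was 0.19, 0.17 and -0.00 in the same order, and that of the members 2.02, 1.92 and 0.71.

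**Figure D2:**
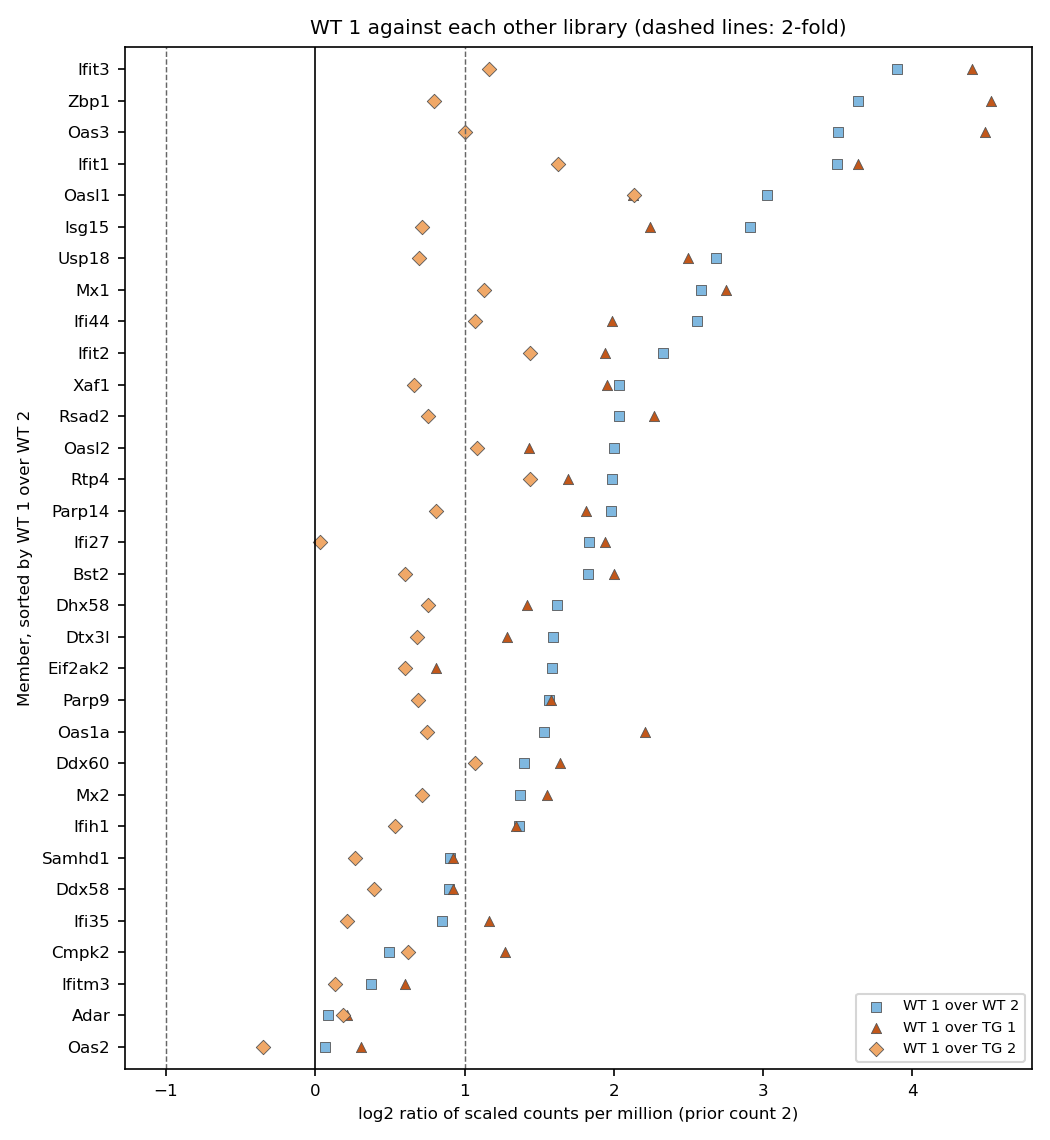
Log2 ratio of WT 1 over WT 2 (squares), over TG 1 (triangles) and over TG 2 (diamonds) for each member, sorted by the first, with dashed lines at a 2-fold difference. The diamonds lie left of the other symbols for most members, 10 of them past 2-fold, and Oas2 lies left of 0.

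The 10 members past 2-fold between WT 1 and TG 2 were Ifit1, Ifit2, Ifit3, Oasl1, Oasl2, Oas3, Mx1, Rtp4, Ifi44 and Ddx60. All 3 IFIT members were among them. None of the Parp9, Dtx3l and Parp14 group was, nor Isg15, Usp18, Rsad2 or Bst2, whose log2 ratios lay between 0.60 and 0.81. The exact counting interval of the ratio lay above 1 for 29 members and held 1 for Oas2, Ifitm3 and Ifi27. The share of all genes with such an interval is not given here, so the count is not read as particular to the members. For Ifit1 the ratio was 3.11 (2.68 to 3.62) and for Ifit2 it was 2.72 (2.46 to 3.01), counting error only.

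Within the 19-week female pair, TG 2 was above WT 2 for 30 members, 13 of them past 2-fold and 0 past 2-fold lower, where 5.33% of all genes were past 2-fold higher and 1.68% lower. The median log2 ratio was 0.90. Cmpk2 and Adar had lower values in TG 2, at -0.13 and -0.10. Both turned positive with library totals in place of TMM, when 21 members were past 2-fold. That change of scaling also moved the median log2 ratio of all genes from -0.01 to 0.18, with 6.77% of all genes past 2-fold higher. Within the 35-week male pair all 32 members were lower in TG 1 than in WT 1. The direction of TG over WT was thus opposite in the 2 pairs for 30 members. With 1 mouse of each genotype in a pair there is no spread to set this difference against, and it was not tested. The share of all genes with opposite directions is not given here. WT 1 and TG 2 were together above both other libraries for 29 members and for 24.6% of all genes tested.

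**Figure D3:**
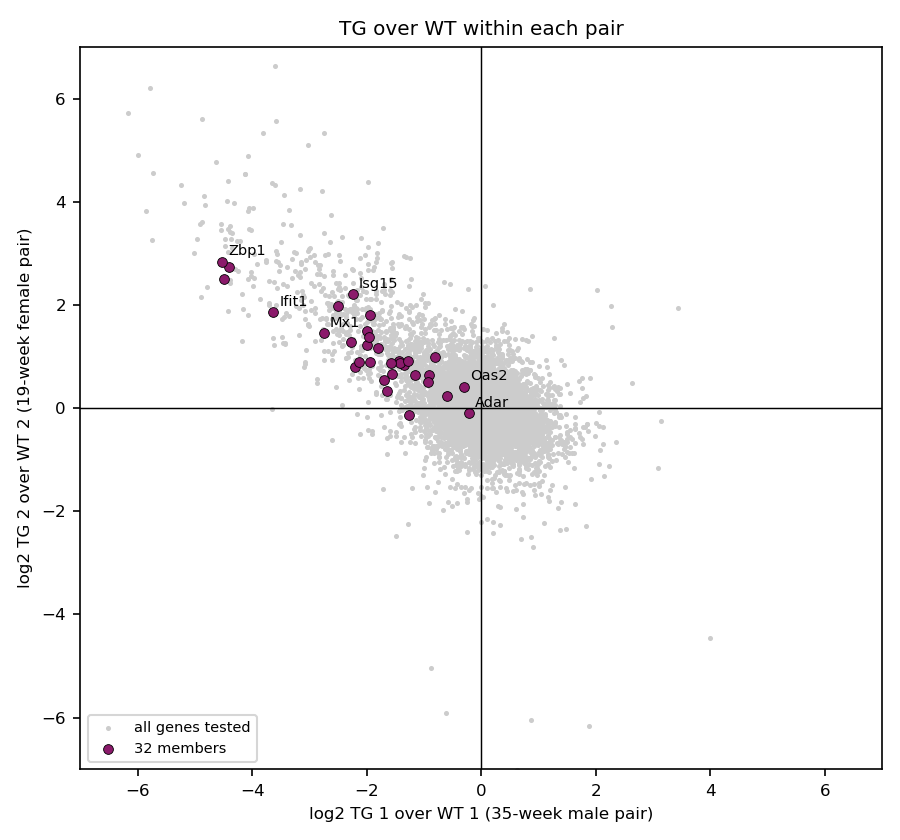
Log2 ratio of TG 1 over WT 1 in the 35-week males (horizontal axis) against that of TG 2 over WT 2 in the 19-week females (vertical axis), for the 32 members (dark) and all genes tested (grey, 14 of them outside the axes). All members lie left of 0 on the horizontal axis, and all but Cmpk2 and Adar lie above 0 on the vertical axis.

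The low libraries were close to each other. WT 2 was above TG 1 for 19 members and TG 1 above WT 2 for 13, against 50.7% and 49.2% of all genes tested. Isg15 was higher in TG 1 by 1.71 to 1.02 CPM and Eif2ak2 by 33.2 to 19.3 CPM, whereas Cmpk2 was higher in WT 2 by 11.4 to 6.62 CPM. These ratios have no replicate check.

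Upstream of the members, no read was assigned to a type I interferon. Of 17 such ligand genes listed, 13 were in the table and all 13, with Ifnb1 among them, had 0 counts in every library. Counting error alone allows up to 3 counts of each per library. The Ifna genes are close copies of each other, so reads that fit several of them may have been lost. Trex1, a widely expressed exonuclease on the list of further induced genes, was also listed at 0 in every library. The 7 receptor and kinase genes listed include Ifngr1, Ifngr2 and Jak2, which serve interferon gamma, so the list is not limited to type I interferon. The 7 had summed levels of 646.7 to 686.6 CPM, and 0 of them were past 2-fold between WT 1 and any other library. Their log2 ratios ran from -0.35 for Jak1 against TG 1 to 0.56 for Jak2 against WT 2. Ifnar1 ranged from 35.1 to 43.2 CPM and Ifnar2 from 22.1 to 31.6 CPM, both named after their values were seen. Jak1 was highest in TG 1 at 274.6 CPM, with the others between 187.7 and 223.8 CPM. The shares of all genes past 2-fold higher in WT 1 (6.87% against WT 2, 6.07% against TG 1 and 1.69% against TG 2) are the background for the counts that follow. Of 11 sensor adaptors and kinases, 3 were past 2-fold higher in WT 1 than in WT 2, 1 than in TG 1 and 0 than in TG 2, with medians of 0.08, 0.22 and -0.04. Mavs, the mitochondrial adaptor of Ddx58 and Ifih1, was lowest in WT 1 at 75.8 CPM and highest in WT 2 at 115.7 CPM.

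Most transcription factor genes were highest in WT 1. Of 8 transcription factor genes on the list, 6 were past 2-fold higher in WT 1 than in WT 2, 7 than in TG 1 and 1 than in TG 2. Irf1 was at 91.6 CPM in WT 1, 47.5 CPM in TG 2, 26.9 CPM in WT 2 and 24.4 CPM in TG 1. Irf9, which binds DNA together with Stat2, was at 43.4 CPM in WT 1, 24.4 CPM in TG 2, 14.6 CPM in WT 2 and 12.6 CPM in TG 1. The gene past 2-fold against TG 2 was Irf7, the amplifier of interferon production, named after its values were seen. It was at 45.1 CPM in WT 1 and 13.9 CPM in TG 2, against 5.89 CPM in WT 2 and 3.56 CPM in TG 1. Stat2 and Irf3 had other orders than most members. Stat2 was at 28.9 CPM in WT 1, 17.8 CPM in WT 2, 17.2 CPM in TG 2 and 14.2 CPM in TG 1. Irf3, which acts before interferon is made, was highest in WT 2 at 26.5 CPM and at 15.9 to 18.0 CPM in the others.

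Of 25 further interferon-induced genes tested, 11 were past 2-fold higher in WT 1 than in WT 2, 14 than in TG 1 and 1 than in TG 2, and 0 were past 2-fold lower. That 1 gene was Ifit3b. The proteasome subunit Psmb8 was at 98.7 CPM in WT 1 and 66.8 CPM in TG 2, against 14.01 CPM in WT 2 and 10.5 CPM in TG 1. The peptide-loading gene Tapbp ranged from 72.3 CPM in TG 1 to 110.3 CPM in WT 1. Of 6 brakes on the pathway, 3, 4 and 0 were past 2-fold higher in WT 1 than in WT 2, TG 1 and TG 2. Nlrc5 had 618 counts in WT 1 and 369 in TG 2, against 125 in WT 2 and 64 in TG 1, while Pias1 stayed between 30.4 and 35.3 CPM in level. In none of these lists did a gene pass the edgeR test between TG and WT, where 0% of all genes did.

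**Figure D4:**
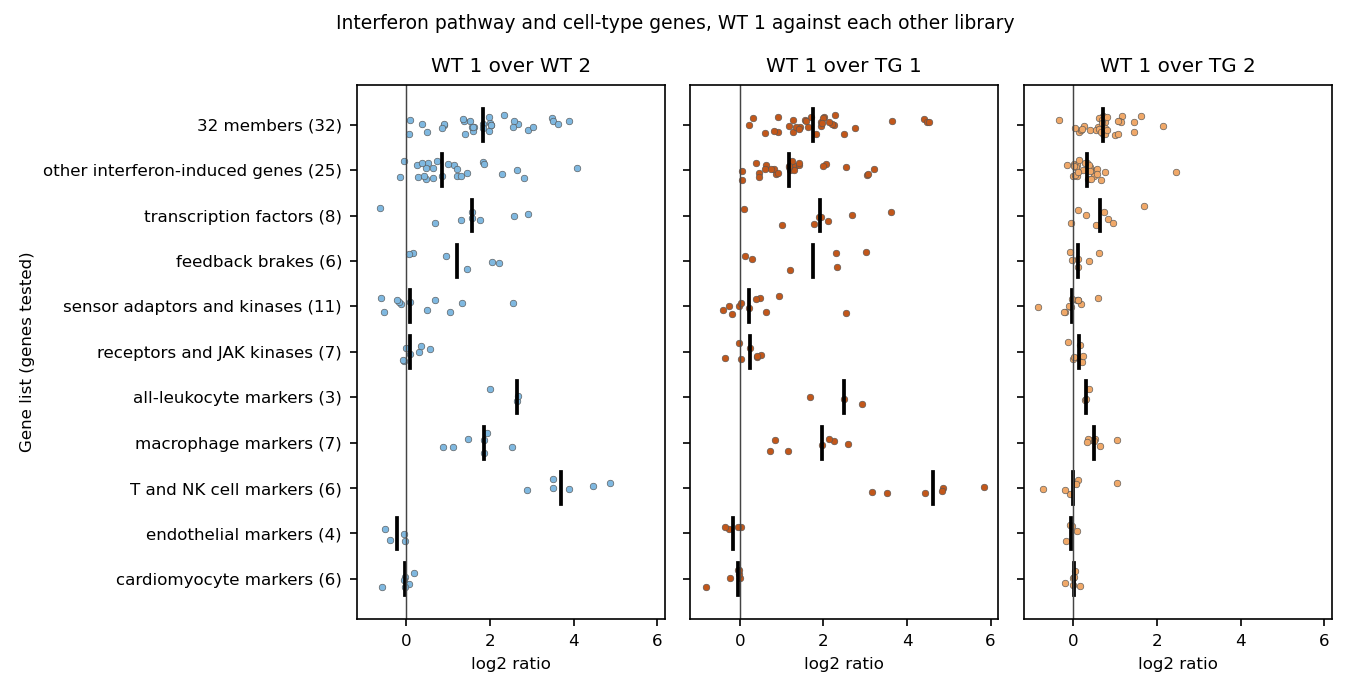
Log2 ratio of WT 1 over WT 2, TG 1 and TG 2 for each tested gene of the members, the pathway lists and the cell-type marker lists, with a black bar at the list median and the number of genes in brackets. The medians of the receptor genes (0.10, 0.23 and 0.13) and cardiomyocyte markers (-0.04, -0.04 and 0.00) lie near 0, though single genes reach -0.81 (Myh6) and 0.56 (Jak2), and the leukocyte lists lie right of 0 against WT 2 and TG 1 and closer to 0 against TG 2.

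Markers of immune cells moved with the same libraries. In bulk tissue, fewer cells of a type and less RNA per cell cannot be told apart. The 3 all-leukocyte markers (Ptprc, Laptm5 and Coro1a) summed to 159.5 CPM in WT 1 and 129.0 CPM in TG 2, against 29.7 CPM in WT 2 and 31.5 CPM in TG 1. The 7 macrophage markers summed to 517.9 CPM in WT 1, 387.0 CPM in TG 2, 200.4 CPM in TG 1 and 192.2 CPM in WT 2. The 6 T and NK cell markers summed to 31.9 CPM in WT 1, 31.5 CPM in TG 2, 1.60 CPM in WT 2 and 0.854 CPM in TG 1, and Cd8a was at 0 counts in TG 1. The 4 B cell markers summed to 0.782 to 2.92 CPM. The 5 plasmacytoid dendritic cell markers summed to 218.6 to 243.7 CPM, with 2 of the 3 tested past 2-fold higher in WT 1 than in WT 2 and in TG 1. Those were the member Bst2 and Irf8, which was at 25.1 CPM in WT 1, 20.5 CPM in TG 2, 8.32 CPM in WT 2 and 6.40 CPM in TG 1. Tcf4 was at 188.1 to 232.7 CPM with the most in TG 1, Siglech had 3 to 15 counts with the most in TG 1, and Ccr9 had 0 to 3. The part of these cells in the members' levels was not tested.

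Between WT 1 and TG 2 the immune marker lists had smaller medians than the members as a whole, though not than every role. The median log2 ratio of WT 1 over TG 2 was 0.30 for the all-leukocyte markers, 0.48 for the macrophage markers and -0.00 for the T and NK cell markers. It was 0.71 for the 32 members. By role it ran from 0.40 for Eif2ak2 and Adar to 1.44 for the 3 IFIT members. The roles of Eif2ak2 and Adar and of the other induced genes (0.44) lay below the macrophage markers. Single markers went further, with 1 macrophage marker (Fcgr1, log2 ratio 1.04) and 1 T cell marker (Cd8a, 1.05) past 2-fold, while Cd4 was at -0.74. The summed endothelial and cardiomyocyte markers split the libraries the opposite way, lower in WT 1 and TG 2. Not every gene did so, since Tnnt2, Actc1, Myl2 and Pecam1 had other orders. Among the cardiomyocyte markers Myh6 was the most abundant and varied most. It was at 18365 CPM in WT 1, 21134 CPM in TG 2, 27275 CPM in WT 2 and 32115 CPM in TG 1. The split of the cardiomyocyte sum rests on Myh6, since the other cardiomyocyte markers summed without it do not divide the libraries this way. The 4 endothelial markers summed to 802.6 CPM in WT 1, 852.5 CPM in TG 2, 928.1 CPM in TG 1 and 1010 CPM in WT 2. The cardiomyocyte markers summed to 50276 CPM in WT 1, 52606 CPM in TG 2, 58064 CPM in WT 2 and 65218 CPM in TG 1. The 4 fibroblast markers summed to 990.2 CPM in WT 2 and 1139 to 1238 CPM in the others. The part of these shifts in the members' levels was not tested.

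The promoters of the members were searched for the core of an element that interferon-activated factors bind. The members were chosen as interferon-induced genes, so a high share follows from that choice and is a description only. Promoters of 22 of the 32 members were in the RefSeq table for GRCm38.p6, each with 250 bases before and 50 after a transcription start. They were read on both strands, overlaps allowed, for GAAA, any 2 bases and GAAA, the core of the interferon-stimulated response element. It was present for 12 of the 22 members (54.5%), against 3.99% of the 27025 genes in the table. The sequences below show the 250 bases before the start, 5′ to 3′ on the gene's strand, with every GAAA core on either strand in capitals. They are shown because they let the count and place of the core be compared between strongly differing members. The first 4 are the members of highest mean CPM with a core in that stretch. The last is the member of highest mean CPM with no core in any of its searched promoters. Stretches that overlap annotated exons by more than 30 bases on either strand were left out. Passed over for this were Ifit1 and Ddx60 with a core (123 and 192 such bases) and Dtx3l and Samhd1 without one (179 and 169).
Rsad2, minus strand, chr12:26456453-26456702: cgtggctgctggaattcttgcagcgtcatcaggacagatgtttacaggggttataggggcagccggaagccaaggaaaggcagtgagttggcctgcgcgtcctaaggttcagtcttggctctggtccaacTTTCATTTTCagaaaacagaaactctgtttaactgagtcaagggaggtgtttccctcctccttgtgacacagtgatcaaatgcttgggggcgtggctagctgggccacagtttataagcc
Bst2, minus strand, chr8:71537473-71537722: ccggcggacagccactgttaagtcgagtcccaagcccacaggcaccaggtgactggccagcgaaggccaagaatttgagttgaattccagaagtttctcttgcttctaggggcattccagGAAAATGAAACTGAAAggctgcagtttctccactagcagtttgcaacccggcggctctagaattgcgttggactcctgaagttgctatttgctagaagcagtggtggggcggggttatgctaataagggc
Ifit3, plus strand, chr19:34583279-34583528: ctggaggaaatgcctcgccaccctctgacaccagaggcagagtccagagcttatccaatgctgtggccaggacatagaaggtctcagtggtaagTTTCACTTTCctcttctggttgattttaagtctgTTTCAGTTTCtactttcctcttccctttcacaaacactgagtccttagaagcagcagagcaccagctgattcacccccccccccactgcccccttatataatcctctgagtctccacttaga
Isg15, minus strand, chr4:156200819-156201068: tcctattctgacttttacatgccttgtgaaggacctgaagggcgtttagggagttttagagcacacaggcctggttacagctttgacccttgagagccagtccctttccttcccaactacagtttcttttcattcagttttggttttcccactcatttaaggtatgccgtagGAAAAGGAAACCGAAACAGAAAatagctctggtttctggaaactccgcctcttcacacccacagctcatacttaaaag
Ifit2, plus strand, chr19:34550444-34550693: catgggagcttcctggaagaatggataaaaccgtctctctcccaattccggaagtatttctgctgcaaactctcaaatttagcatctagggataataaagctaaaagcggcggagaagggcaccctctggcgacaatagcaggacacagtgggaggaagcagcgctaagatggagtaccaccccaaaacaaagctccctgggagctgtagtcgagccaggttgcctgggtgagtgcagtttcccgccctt

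Isg15 holds 3 overlapping cores whose first bases lie 78, 72 and 66 bases before the start. Bst2 holds 2 overlapping cores at 130 and 124 bases before it, Ifit3 2 separate cores at 156 and 122, and Rsad2 1 core at 120. Ifit1, not printed, holds 2 at 104 and 85 bases before the start. A match is a description of these letters only. The median log2 ratio of WT 1 over WT 2 was 1.71 for the 12 with it and 1.796 for the 10 without it, and that of WT 1 over TG 1 was 2.11 and 1.36. Against TG 2 the medians were 0.73 and 0.67. Past 2-fold higher in WT 1 were 10 of the 12 and 6 of the 10 against WT 2, 9 and 8 against TG 1, and 4 and 4 against TG 2. For TG 2 over WT 2 the medians were 1.11 and 0.89, with 6 of the 12 and 2 of the 10 past 2-fold.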

How the data were processed

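Counts per Ensembl gene were used as deposited by the authors. Per the submitters' processing notes, the tools included HTSeq 0.6.1, STAR 2.3.0, DESeq, CASAVA 1.8.2 and FastQC 0.10.0, the build was mm10, and per the labels' protocols libraries were stranded total RNA sequenced on a HiSeq2000. The deposited normalized signal equalled those counts divided by 1 factor per library and served only as a check. Annotation release and counting strand are not given in the sources used here.

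Genes were kept by filterByExpr (minimum count 10), scaled by TMM and tested in R 4.3.3 with edgeR 4.0.16 (quasi-likelihood, no block, Benjamini-Hochberg over 14189 genes, threshold 0.05). The code of the fit was checked on simulated counts with the same dispersion for every gene. That check does not show how the test performs at the spread of these mice. Alternatives used limma-voom (limma 3.58.1) and DESeq2 1.42.0. Ratios of 1 library to another used a prior count of 2, and exact 95% intervals cover counting error only. Positions and lengths came from GENCODE vM21 (mm10), matched by Ensembl identifier, and near copies from BLAST 2.17.0. Each genotype had 2 mice, so p-values measure only how these animals vary. The members and lists were chosen with earlier results of these data known. All 32 members are named. Pathway genes were named as called or, with none called, as the 1 to 3 of highest mean CPM in a list, and exceptions are stated. No protein sequence was used. One gene of the pathway is not reported here by name.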

Additional observations from a re-analysis of the deposited data

Results flagged for a closer look

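The log2 ratio of TG over WT pointed opposite ways in the 2 pairs, lower in TG in the 35-week males and higher in TG in the 19-week females, for the median of the 32 members and for 7 of the 8 representatives. The difference (male pair minus female pair) was -2.65 for the median, from -1.75 in the males and 0.90 in the females. It was -5.50 for Ifit1, -4.45 for Isg15, -4.21 for Mx1, -3.55 for Rsad2, -3.23 for Bst2, -1.42 for Ddx58 and -0.73 for Oas2. Each rests on 1 TG and 1 WT mouse per pair, and the difference was not tested. The share of all genes with opposite directions is not given here. Leukocyte markers moved with the same libraries, and their part in it was not tested.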

How the results depend on the processing

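No member was called between TG and WT, or between the 35-week males and 19-week females, under any alternative run. Leaving out 1 library at a time, the count of all genes called between TG and WT ran from 0 to 8 (8 without WT 1) and the members' median log2 fold change from -1.20 to 0.69 (0.69 without WT 1). The fold changes then ran from -2.80 to 1.21 for Ifit1, -1.49 to 1.75 for Isg15, -2.48 to 1.14 for Mx1, -1.60 to 0.72 for Rsad2, -1.39 to 0.71 for Bst2, -0.63 to 0.26 for Ddx58 and -0.28 to 0.39 for Oas2. In the comparison of males with females, the count of genes ran from 0 to 9 and the members' median from -0.52 (without WT 1) to 1.21. A lone library was assumed to vary like the other group. DESeq2 called 3 genes between TG and WT, and 33 between males and females, where 4 were called by edgeR, 7 without a filter and 0 with genotype as a block. The numbers pair mice of one sex and age. Their deviations from the group means correlated at -0.45, and with the replicate block edgeR called 0 genes and 0 members, with a members' median of -0.31. A crossed pairing, chosen after seeing the data, also called 0 genes. With a 1.5-fold limit, 24 members were higher in WT 1 than in TG 2 and 25 higher in TG 2 than in WT 2. With library totals 21 were past 2-fold in the latter, where the median log2 ratio of all genes was then 0.18. Members under 10 counts in a library (5 of 32) have wide counting intervals.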
